A study of Mus musculus with 4 samples.

Results

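The genes described here encode the carriers of amino acids, their derivatives and small peptides in the small intestinal lining. They were chosen by name: every probe of the array design whose gene name begins with Slc1a, Slc3a, Slc6a, Slc7a, Slc15a, Slc36a, Slc38a or Slc43a followed by a number. That gave 135 of the 56605 non-control probes and 71 of the 37324 gene names on the array, of which 67 were transporter genes and 4 were names of transcripts from the opposite strand of such a gene. The largest families were Slc6a with 20 transporters, Slc7a with 15 and Slc38a with 11, followed by Slc1a with 7, Slc15a with 5, Slc36a with 4, Slc43a with 3 and Slc3a with 2.

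The samples were epithelial tissue scraped from the jejunum and the ileum of C57BL/6J mice aged 9 weeks. All mice, controls included, carried the Tcrbd-/- deletion of the beta and delta genes of the T cell receptor, without which T cells do not mature. The wild-type groups were DAOwt/wt and the G181R groups were DAOG181R/G181R, which carry on both copies an exchange known to inactivate D-amino acid oxidase, the enzyme that oxidises neutral D-amino acids such as D-serine and D-proline. RNA of 5 mice was mixed for each of the 4 groups, and 100 ng went onto 1 one-colour Agilent array per group. There was no replicate array, so no value below has an error between mice. No test was run: a model of genotype and tissue over the 4 arrays would leave 1 residual degree of freedom.

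Dietary protein reaches the epithelium as free amino acids and as dipeptides and tripeptides. Carriers in the brush border, many of them driven by sodium or protons, bring these into the enterocyte, and a separate set of exchangers and uniporters in the basolateral membrane passes them on to the blood. Several of the exchangers work only as pairs of a light chain, which carries the substrate, and a heavy chain, Slc3a1 or Slc3a2, which brings the pair to the membrane. When amino acids run short or the endoplasmic reticulum is stressed, the transcription factor ATF4 raises a known set of these carriers together with enzymes of asparagine, serine and glycine synthesis.

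A signal below is the background-subtracted brightness of a probe, and a difference is given in log2 after each array was scaled to its 75th percentile, so 1 is a 2-fold difference. The brightest probe of a gene stood for it, and signals of different genes cannot be ranked because each probe binds with its own efficiency. In a comparison, the measured genes were those with a probe well above background on each of the arrays compared. Of the 71 names, 46 were well above background on all 4 arrays, 12 on some and 13 on none, among them Slc6a2, which carries noradrenaline, Slc6a5, which carries glycine, and Slc38a4 and Slc38a5, which carry neutral amino acids. Over the array 57.42% to 60.4% of probes were well above background and no spot was saturated. Repeated spots of a probe on the same arrays gave a median SD of a log2 difference of 0.0392 to 0.044, and 0.187 to 0.275 for the 7 or 8 repeated probes with a signal under 50. That spread covers spots of a single hybridisation only.

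All 10 enterocyte markers were well above background on every array. Their summed level, relative to each array's 75th percentile, was 4370 in wild-type and 3960 in G181R jejunum and 1910 and 1750 in ileum. Lower levels of a transcript in such scrapings may mean fewer cells of a type or less RNA per cell, and these cannot be told apart.

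Between genotypes few transporters differed by 2-fold or more. In jejunum 50 members were measured, and in G181R mice 2 stood above the wild-type level by 2-fold or more and 1 below it by as much. That is 6.0% of the measured members, beside 1.51% of the 21354 genes measured (0.763% higher and 0.749% lower). In ileum 1 member was higher and 2 were lower of 50 measured, again 6.0%, beside 5.21% of 21608 genes (2.0% higher and 3.21% lower). The members' median difference was -0.03 in jejunum, beside -0.01 over all genes, and 0.03 in ileum, beside 0.03. Each share rests on 3 members, and in ileum it is near that of the array as a whole.

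The brush border uptake carriers included the members with the greatest measured genotype difference in each direction in ileum, Slc6a14 and Slc6a20a. Of 11 carriers on the list, 10 were measured in jejunum with 0 at least 2-fold higher and 1 lower, and 10 in ileum with 1 higher and 1 lower. Their medians were 0.01 in jejunum and -0.00 in ileum.

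Slc6a20a encodes SIT1, the sodium-coupled carrier of proline and other imino acids. Its signal was 3572.0 in wild-type and 2020.8 in G181R jejunum, and 1865.1 in wild-type and 587.6 in G181R ileum. Both G181R arrays were thus below the wild-type array of their tissue. The difference was -0.86 in jejunum and -1.59 in ileum, a level 3.01-fold lower there. A second probe gave -0.87 and -1.50, with signals of 1532.1, 858.4, 812.1 and 272.5 in the same order. The probe lies at chr9:123545862-123545921 in mm9, the build of the array files.

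Slc6a20b, the neighbouring paralog 42814 bases away between probes, ran the same way. Its signal of 91.8 in wild-type jejunum stood against 27.9 in G181R mice, a 3.37-fold lower level (-1.75). In ileum it read 28 in wild-type mice, and at 3.1 it was not well above background in G181R mice, so it was at least 4.34-fold lower. The other Slc6a20b probe, at chr9:123504197-123504256 in mm9, read 25.3 and 10.1 in jejunum (-1.36), and in ileum 19.7 in wild-type and 7.2, not well above background, in G181R mice. That oligo is shown, 5′ to 3′, because the RNA of one paralog can bind a probe of the other, which was not tested:
Slc6a20b probe: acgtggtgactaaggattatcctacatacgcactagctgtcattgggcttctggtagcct
Under normexp, a background correction that adds an offset of 50 and so pulls dim probes together, the jejunal difference of Slc6a20b was -0.88 and no longer reached 2-fold, while Slc6a20a in ileum stood at -1.52.

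Slc6a14 encodes ATB0,+, a sodium- and chloride-coupled carrier of neutral and cationic amino acids that also accepts D-serine. It was not well above background on either jejunal array, with signals of 1.7 and 1.4, and read 209.7 in wild-type and 719.9 in G181R ileum. Among members well above background on both ileal arrays it stood furthest above its wild-type level, 3.62-fold higher in G181R mice (1.86). Its single probe lies at chrX:21318999-21319058 in mm9, and normexp gave 1.57.

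Slc36a1 encodes PAT1, which takes up proline, glycine and alanine with protons. It read 624.8 and 1095.3 in wild-type and G181R jejunum and 71.2 and 128.1 in ileum. The G181R array was higher in each tissue, by 0.78 and 0.93, both under 2-fold. Its other probe gave 0.39 and 0.61.

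The remaining uptake carriers differed less between genotypes. Slc15a1, the peptide carrier PEPT1, read 2373.7 and 2420.0 in wild-type and G181R jejunum and 1178.8 and 844.7 in ileum (-0.01 and -0.40). Slc6a19, the main neutral amino acid carrier B0AT1, read 4414.8, 4327.0, 4679.8 and 3254.5 in the same order (-0.06 and -0.45).

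Cystine and dibasic amino acids enter through the pair of Slc7a9 and Slc3a1. Slc7a9 differed by 0.29 and -0.03 between genotypes in jejunum and ileum, and Slc3a1 by 0.03 and 0.02. The taurine carrier Slc6a6 differed by -0.30 and 0.12. Slc1a1, the glutamate and aspartate carrier EAAT3, differed by 0.44 in jejunum and -0.07 in ileum, and Slc1a5, the neutral amino acid and glutamine exchanger ASCT2, by 0.46 and 0.08. None of these 5 genes reached 2-fold in either tissue.

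**Figure D1:**
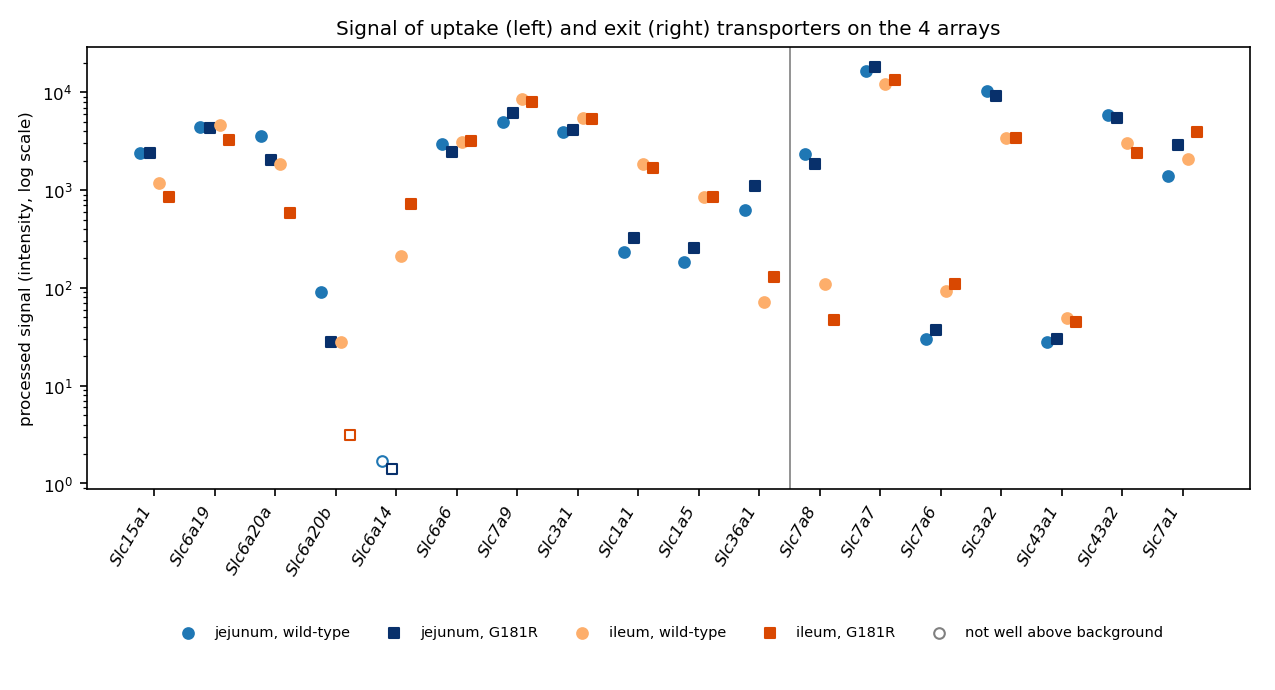
Processed signal (intensity, log axis) of the 11 uptake and 7 basolateral exit and exchange transporters, 1 point per array of pooled RNA. Circles are wild-type, squares G181R, blue jejunum, orange ileum, and open symbols are not well above background. In ileum the G181R square lies 3.62-fold above the wild-type circle for Slc6a14 and 3.01-fold below it for Slc6a20a.

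At the basolateral side all 7 listed carriers were measured in both tissues. In jejunum 1 was at least 2-fold higher and 0 lower in G181R mice, with a median difference of 0.08, and in ileum 0 were higher and 1 lower, with a median of 0.05. Slc7a8 encodes LAT2, the light chain that exchanges neutral amino acids. It read 2324.5 and 1863.2 in wild-type and G181R jejunum and 109.3 and 46.8 in ileum, so the G181R array was lower in both. The differences were -0.35 and -1.15, the latter 2.21-fold lower. The ileal difference was -0.61 under normexp and -0.77 as the mean of its probes, of which the dimmer one was not well above background in ileum.

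Slc7a1, the arginine and lysine carrier CAT1, stood furthest above wild-type of the listed basolateral carriers in both tissues. It read 1388.6 in wild-type and 2871.6 in G181R jejunum, and 2098.0 and 3914.9 in ileum. Both G181R arrays were above both wild-type arrays. The differences were 1.01, or 2.02-fold, and 0.98, or 1.97-fold, so the jejunal value lay just inside and the ileal value just outside 2-fold. Normexp gave 0.99 in jejunum.

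At their brightest probes the other listed basolateral carriers stayed within 1.3-fold of wild-type in both tissues. Slc7a7, the light chain y+LAT1 that releases dibasic amino acids, differed by 0.11 and 0.21. Slc7a6, the related light chain y+LAT2, differed by 0.29 and 0.34 at signals of 110.7 and below. Their heavy chain Slc3a2 differed by -0.21 and 0.05. The uniporter Slc43a2, or LAT4, differed by -0.13 and -0.27, and Slc43a1, or LAT3, by 0.08 and -0.07. Dimmer probes did not all match these values in ileum. That of Slc7a6 was at least 1.9-fold higher in G181R mice, those of Slc43a2 gave -0.18 and -0.54, and that of Slc43a1 gave 0.42. Slc16a10, the aromatic amino acid uniporter TAT1 and no member, was lower by -0.21 and -0.48.

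The carriers known to answer to ATF4 were next compared with the other known targets of that factor. Of 10 such carriers, 9 were measured in each tissue. In jejunum 6 of the 9 were above wild-type, beside 48.3% of all genes, with 2 at least 2-fold higher (0.763% of all genes), 0 lower and a median of 0.45. In ileum 7 were above wild-type, beside 53.2% of all genes, with 0 at least 2-fold in either direction and a median of 0.08. These 7 include Slc3a2 at 0.05, Slc38a1 at 0.07 and Slc1a5 at 0.08, all under 3 spot SDs (0.129). The other Slc38a1 probes gave -0.03, -0.03 and -0.07 there, and the third Slc3a2 probe gave -0.18. The ileal count thus rests partly on values that small. Of 30 other ATF4 targets, 29 were measured in jejunum, with 5 at least 2-fold higher, 0 lower and a median of 0.40, and 30 in ileum, with 8 higher (2.0% of all genes), 0 lower and a median of 0.43.

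The jejunal pair was Slc7a1 and Slc7a5, the latter being the light chain LAT1, which carries large neutral amino acids such as leucine. Slc7a5 read 13.6 in wild-type and 34.4 in G181R jejunum, 2.48-fold higher (1.31), and 27.1 and 29.3 in ileum (0.19). Wild-type jejunum was the low array and the other 3 lay close together. These signals are near background, and normexp gave 0.37 in jejunum. Its single probe, at chr8:124430996-124431055 in mm9, is shown because this call rests on that oligo alone:
Slc7a5 probe: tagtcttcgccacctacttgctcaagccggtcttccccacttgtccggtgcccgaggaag

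Slc6a9, the glycine carrier GLYT1, read 289.2 and 420.0 in wild-type and G181R jejunum and 824.3 and 1199.3 in ileum. G181R was higher in each tissue, by 0.50 and 0.62. Slc38a1 and Slc38a2, the sodium-coupled glutamine and alanine carriers SNAT1 and SNAT2, differed by 0.45 and 0.04 in jejunum and by 0.07 and 0.23 in ileum. Slc7a3, a cationic carrier like Slc7a1, ran the other way at signals of 8.1 to 16.2, by -0.76 and -0.90.

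Slc7a11 encodes xCT, the light chain that exchanges cystine for glutamate. Of its 4 probes only the brightest, at chr3:50176047-50176106 in mm9, was well above background anywhere, and only in G181R ileum, where it read 15, against 6.0 in wild-type ileum and 1.5 and 1.2 in wild-type and G181R jejunum. That made it at least 2.2-fold higher in G181R than in wild-type ileum.

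Among the other ATF4 targets, Chac1, which degrades glutathione, read 140.2 and 484.3 in wild-type and G181R jejunum and 339.4 and 1339.4 in ileum (1.75 and 2.06). Asns, the asparagine synthetase, read 1220.7, 3165.1, 2480.5 and 6526.4 (1.34 and 1.47). Psat1, of serine synthesis, differed by 1.47 and 1.20, and Mthfd2, of mitochondrial folate metabolism, by 1.64 and 1.23. Trib3, a pseudokinase, differed by 0.09 and -0.18, and Ddit3, the transcription factor CHOP, by -0.08 and 0.06. The transcript of Atf4 itself differed by 0.26 and 0.36.

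**Figure D2:**
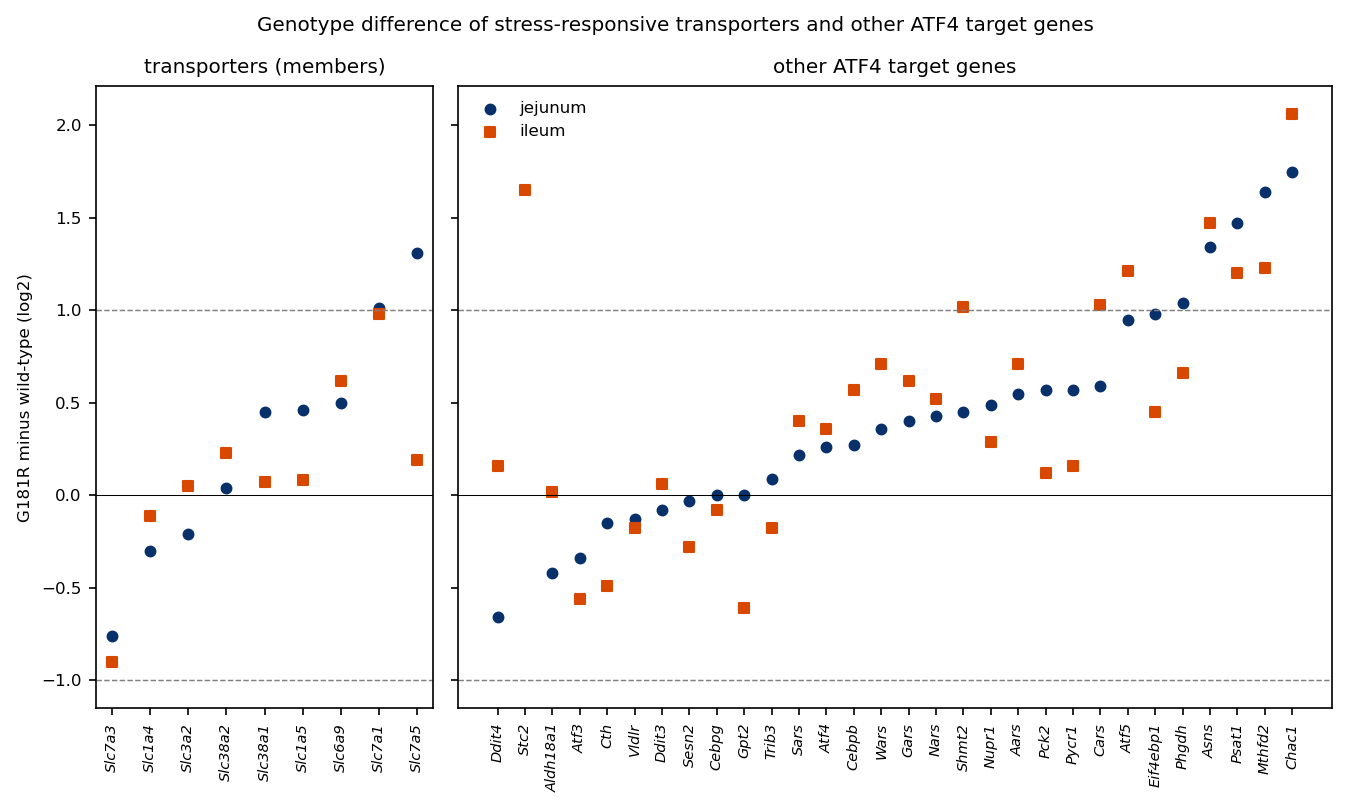
Log2 difference of G181R minus wild-type for the 9 measured stress-responsive carriers (left panel) and the other ATF4 targets (right panel), blue circles for jejunum and orange squares for ileum, with dashed lines at 2-fold. Slc7a1 lies near 1 in both tissues, Slc7a5 at 1.31 in jejunum and 0.19 in ileum, and Chac1, Mthfd2, Psat1 and Asns lie above 1 in both; Stc2 has an ileal point only.

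The 8-letter word TGATGNAA, a core of the CARE element to which ATF4 and its partners bind, was then looked up on both strands (TTNCATCA on the other) in RefSeq promoters of GRCm38.p6, each 300 bases from 250 before to 50 after a gene's start. It was present in 3.97% of all 32851 promoters, or for 4.51% of 27025 genes. Of the 67 transporters 48 had a promoter entry, and 4 of the 48 genes (8.33%) held the word: Slc7a11, Slc1a4, Slc7a7 and Slc15a5. Of the ATF4 targets that are no members, 10 of 25 genes with an entry (40.0%) held it. On the list of carriers known to answer to ATF4, 2 of 6 genes with an entry (33.3%) held the word, Slc7a11 and Slc1a4. Slc7a1, Slc6a9, Slc3a2 and Slc38a2 had an entry without the word, and Slc7a5, Slc1a5, Slc38a1 and Slc7a3 had no entry. The stretch of Slc7a11, chr3:50443633-50443699 on the minus strand, is printed because it holds the word on each strand (in capitals), beside those of Slc1a4, Asns and Chac1 for comparison:
Slc7a11: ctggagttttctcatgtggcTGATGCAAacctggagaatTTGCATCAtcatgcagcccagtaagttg
Slc1a4: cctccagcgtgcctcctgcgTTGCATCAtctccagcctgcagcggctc
Asns: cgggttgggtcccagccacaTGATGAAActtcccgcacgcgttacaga
Chac1: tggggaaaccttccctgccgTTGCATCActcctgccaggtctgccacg
The words stood at 66 and 47 bases before the start of Slc7a11, 4 before that of Slc1a4, 23 before that of Asns and 193 before that of Chac1. Of these, Asns and Chac1 were at least 2-fold higher in both G181R tissues, whereas Slc1a4, a carrier of alanine, serine and cysteine, differed by -0.30 and -0.11. The targets with the word were not all raised: Trib3, near its wild-type level in both tissues, also held it. A match of letters describes the promoter and does not show binding.

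The Slc1a4 probe needs a reservation. The array has a single probe for it, with signals of 723.8, 600.5, 877.5 and 769.7. A run of 16 of its bases occurs, on either strand, in probes of 9 other genes. The brightest Slc38a9 probe and 1 of the 3 Slc3a2 probes likewise hold a run of 16 bases found in probes of 10 other genes. The stretches are shown with the run in capitals, because the run is not particular to the named gene:
Slc38a9: ctctgtgAGTTCCAGGACAGCCAaagctac
Slc3a2: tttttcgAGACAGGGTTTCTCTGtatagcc
Slc1a4: gtatcaaGTGTGTGTGTGTATGTgtgtgct
The other probes with the Slc38a9 run, on either strand, had a median signal of 31800, ranging from 15.4 to 107000. Those with the Slc3a2 run had a median of 21500 (508 to 105000). Those with the Slc1a4 run had a median of 2960 (878 to 18900), beside 17.1 over all probes. Slc38a9, a lysosomal carrier that reports arginine to mTORC1, read 15932.0, 17797.3, 16689.2 and 16200.8 at this probe and 128.3, 122.8, 182.9 and 168.1 at its other one. The part of the shared runs in these signals was not tested. Several other member probes share a run of 16 bases with 1 probe of another name. Among them are the single probes of Slc6a14 and Slc6a9 and the brightest of Slc6a4 and Slc7a8, for which this was not tested either.

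Carriers known to move D-serine, a substrate of the enzyme altered in G181R mice, were listed separately. In jejunum 5 of 6 were measured, with 0 at least 2-fold different and a median of 0.04. In ileum 6 were measured, 5 of them above wild-type beside 53.2% of all genes, with 1 at least 2-fold higher, 0 lower and a median of 0.15. The one that passed 2-fold was Slc6a14. Slc7a10, the light chain Asc-1 that exchanges D-serine and other small neutral amino acids, read 11.1 and 10.7 in wild-type and G181R jejunum and 32.0 and 35.2 in ileum (-0.09 and 0.22). That probe shares 16 bases in a row, on either strand, with probes of 2 other genes. Its second probe was well above background in ileum only, at 13.0 in wild-type and 6.7 in G181R mice (-0.87). The probes of Slc7a10 thus differed in sign. The count of 5 also takes in Slc38a1 at 0.07 and Slc1a5 at 0.08, both under 3 spot SDs (0.129). The other probes of Slc38a1 gave -0.03, -0.03 and -0.07 in ileum. The count therefore rests on the brightest probes and partly on values that small.

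Among the remaining members none differed by 2-fold between genotypes in either tissue where it was measured. Of the Slc38 family 8 of 11 were measured in each tissue, with 0 at least 2-fold different and medians of -0.01 in jejunum and 0.08 in ileum. Its highest value was 0.96 for Slc38a8, a glutamine carrier, in jejunum, where 70.0 in wild-type stood against 139.1 in G181R mice. The other Slc38a8 probe gave -0.04 there and 0.11 in ileum, so the probes did not match. The lysosomal and intracellular carriers gave medians of 0.07 and 0.03. Slc15a4 and Slc15a3, which carry histidine and peptides out of lysosomes, differed by -0.18 and 0.14 in jejunum and by -0.07 and 0.45 in ileum.

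Of 19 neurotransmitter, glycine, osmolyte and creatine carriers, 12 were measured in jejunum and 11 in ileum, with 0 at least 2-fold different and medians of -0.23 and 0.12. Slc6a4, the serotonin carrier, read 1156.2 and 1568.8 in wild-type and G181R jejunum and 582.4 and 410.7 in ileum. G181R was thus the higher array in jejunum (0.41) and the lower in ileum (-0.43), and a second probe gave 0.35 and -0.31. Slc6a8, the creatine carrier, differed by 0.08 and 0.39. Slc6a7, a proline carrier best known from neurons, read 111.8 in wild-type and 57.6 in G181R ileum (-0.88) and 19.6 and 17.9 in jejunum. Slc1a3, the glutamate carrier of glia, differed by -0.04 in jejunum and by -0.81 in ileum, where it read 15 and 8.1. Slc7a15 read 933.3, 872.9, 587.6 and 343.4, with differences of -0.13 and -0.70, and its other probe gave -1.16 in ileum.

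Other members are given by detection. Slc15a2, the peptide carrier PEPT2, was measured in all groups and differed by 0.08 and -0.16. Slc38a7, a lysosomal glutamine carrier, and its relative Slc38a10 read 115.1, 96.1, 89.4 and 86.3, and 967.1, 947.9, 705.1 and 706.6, in each case with both jejunal arrays above both ileal ones. In G181R ileum only, Slc7a2, the cationic carrier CAT2, and Slc7a12 were well above background, at 7.6 and 8.3. Slc38a3, the glutamine carrier SNAT3, was so in ileum only, at 11.9 in wild-type and 16.6 in G181R mice. Slc36a3 was so in wild-type ileum only, at 10.9. These last 4 genes read close to background.

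In both tissues alike, 4 members were higher in G181R mice by more than 3 spot SDs, namely Slc7a1, Slc36a1, Slc6a9 and Slc38a8. Slc38a8 was so at its brighter probe only, as the other gave -0.04 in jejunum. The limit was 0.129, or 0.825 where a signal was under 50. Lower in both by that measure were Slc6a20a, Slc43a3, a nucleobase carrier (-0.23 and -0.28), and Slc7a15. Of the 46 names measured on all arrays only Slc6a4 passed the limit in opposite directions. The share of all genes past these limits was not counted, so these counts have no array-wide share beside them.

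**Figure D3:**
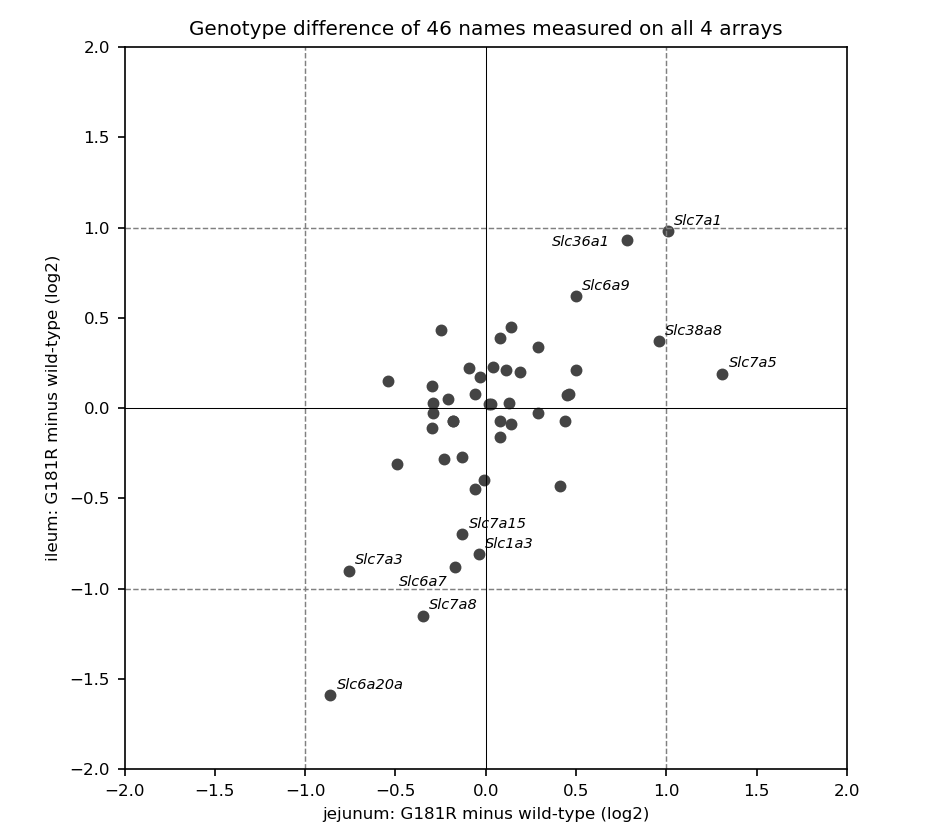
Log2 difference of G181R minus wild-type in jejunum (horizontal) against ileum (vertical) for the 46 names well above background on all 4 arrays, 1 point per name, with dashed lines at 2-fold. Slc7a1, Slc36a1 and Slc6a9 lie to the upper right, Slc6a20a to the lower left at -0.86 and -1.59, and Slc7a5 to the right at 1.31 and 0.19.

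Values of other cell types moved with the ileal genotype difference. The smooth muscle markers summed to 106 in wild-type and 44.1 in G181R ileum, with 12 and 11 of 12 well above background. Of the 11 measured on both ileal arrays 9 were at least 2-fold lower in G181R mice, with a median of -2.51. The adipocyte markers summed to 34.0 and 16.6 (7 and 7 of 7 well above background), with 4 of 7 at least 2-fold lower and a median of -1.05, and the tuft markers to 3.22 and 1.74 (5 and 5 of 7), with 2 of 5 lower and a median of -0.91. The enteroendocrine markers summed to 177 and 120 (12 and 12 of 12), with 1 at least 2-fold lower and a median of -0.55, and the crypt and cell cycle markers to 66.4 and 97.5 (10 and 10 of 10), with a median of 0.57. In jejunum the smooth muscle, enteroendocrine and crypt sums were 51.9 and 56.9, 238 and 226, and 34.5 and 44.6, with medians of 0.17, -0.10 and 0.40. The jejunal adipocyte sums were 4.82 and 3.31, with 1 of 6 at least 2-fold lower and a median of -0.46. The jejunal tuft sums were 3.63 and 3.14, with 5 of 5 lower, 0 of them by 2-fold, and a median of -0.08. Of 9 nerve and glia markers measured in ileum, 6 were lower in G181R mice, 2 of them at least 2-fold, and 3 higher. Their ileal median was -0.40, although their sums were 30.4 in wild-type and 40.2 in G181R mice, and their jejunal median was 0.16. All 7 fibroblast markers were lower in G181R ileum, with a median of -0.65, beside -0.26 in jejunum. Tph1, which makes serotonin in enteroendocrine cells, read 130.6 and 70.6 in ileum and 370.0 and 348.3 in jejunum. Their part in the transporter differences was not tested. Brush border peptidases, which release the substrates of these carriers, gave 0 of 13 at least 2-fold different in either tissue. Their medians were 0.01 in jejunum and -0.18 in ileum. In ileum 11 of 13 were below wild-type, whereas 53.2% of all genes were above it.

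Between ileum and jejunum the transporters differed far more. In wild-type mice 48 members were measured, and 7 were at least 2-fold higher and 13 lower in ileum, or 41.7%, beside 16.5% of 20879 genes (7.42% higher and 9.11% lower). In G181R mice 7 were higher and 11 lower of 48, or 37.5%, beside 16.0% of 21605 genes (7.3% higher and 8.73% lower). The members' medians were -0.18 and -0.12, beside -0.05 and -0.03 over all genes. In each genotype the members' share past 2-fold was above the array's, and more members lay on the jejunal side. Within a genotype tissue and array cannot be told apart. Markers of cell types also differed: in wild-type mice 6 of 10 enterocyte markers were at least 2-fold lower and 7 of 10 crypt and cell cycle markers higher in ileum, and in G181R mice 6 and 8. Their part in these differences was not tested.

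Jejunum had more of several brush border carriers. In ileum Slc36a1 was 10.4-fold lower (wild-type) and 9.37-fold lower (G181R), and its other probe gave -1.93 and -1.71. Slc15a1 was 2.38-fold and 3.14-fold lower, with its second probe at -1.50 and -1.73. Slc6a20a was 2.27-fold and 3.77-fold lower. Slc6a20b was 3.89-fold lower in wild-type ileum and at least 5.0-fold lower in that of G181R mice, but its other probe gave 1.52-fold and at least 1.53-fold, both under 2-fold. These carriers of peptides and of proline were thus higher in jejunum in both genotypes.

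On the list of uptake carriers 2 of those measured were at least 2-fold higher in ileum in each genotype, Slc1a1 and Slc1a5. Slc1a1 read 235.1 and 327.0 in wild-type and G181R jejunum and 1870.3 and 1683.9 in ileum, without overlap between the tissues. It was 6.72-fold higher in ileum in wild-type and 4.7-fold in G181R mice, and a second probe gave 3.17 and 2.54. Slc1a5 read 182.7 and 257.1 in jejunum and 847.1 and 847.7 in ileum, 3.92-fold and 3.01-fold higher. Slc6a14 was at least 24.1-fold higher in wild-type ileum and at least 113-fold higher in G181R ileum. Slc6a19, Slc6a6, Slc7a9 and Slc3a1 were within 2-fold between tissues, at -0.16, -0.17, 0.55 and 0.24 in wild-type mice.

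Of the basolateral carriers 1 was higher and 3 were lower in ileum in each genotype. Slc7a8 differed most of all measured members, 25.2-fold lower in wild-type and 43.6-fold lower in G181R ileum. Its second probe read 113.6 and 81.1 in jejunum and was not well above background in ileum. Slc7a7, whose probe lies 351911 bases from that of Slc7a8 on chromosome 14, differed by only -0.66 and -0.56. Slc43a2 was 2.27-fold and 2.5-fold lower in ileum.

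The heavy chain Slc3a2 read 10350.8 and 9185.1 in wild-type and G181R jejunum and 3451.0 and 3383.7 in ileum, 3.55-fold and 2.98-fold lower. The third of its probes gave -1.77 and -1.73. The probe with the shared run gave -0.11 and -0.18. Slc16a10, the uniporter that works beside these exchangers, was also lower in ileum, by -2.77 and -3.04. Slc7a6, the light chain that was higher in ileum, differed by 1.37 and 1.43. The 2 probes of Slc43a1 disagreed in size: the brighter gave 0.59 and 0.44, and the other was well above background in ileum only, at 58.1 and 73.5.

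**Figure D4:**
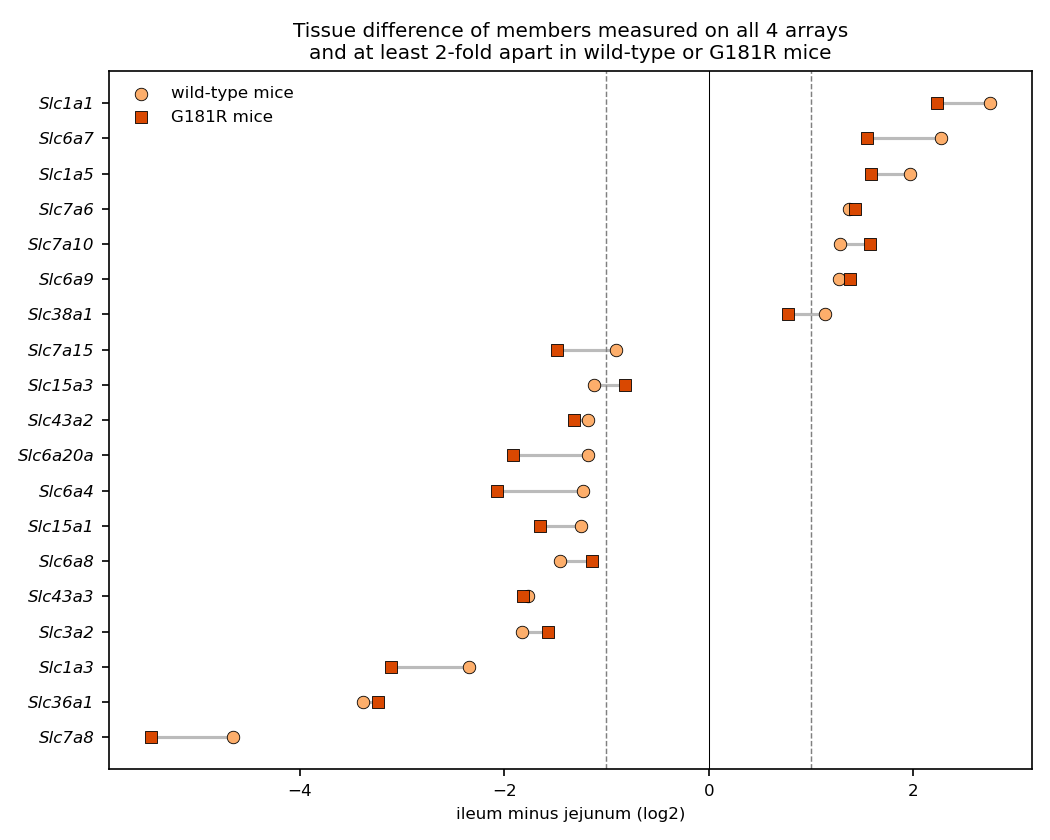
Log2 difference of ileum minus jejunum for the 19 members well above background on all 4 arrays and at least 2-fold apart in wild-type (circles) or G181R mice (squares), 1 value per pair of arrays, with dashed lines at 2-fold. Every member keeps its side of 0 in both genotypes, from Slc7a8 at -4.65 and -5.45 to Slc1a1 at 2.75 and 2.23.

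Carriers of transmitters and osmolytes also split between the tissues. Slc6a3, the dopamine carrier, read 228.2 and 146.8 in wild-type and G181R jejunum and was not well above background in ileum, at 2.3 and 1.2. It was at least 37.5-fold lower in wild-type and at least 26.3-fold lower in G181R ileum. Its neighbours on chromosome 13, Slc6a18 and Slc6a19, whose probes lie 83483 and then 19142 bases further on, did not share this: Slc6a18 differed by 0.28 and 0.46 and Slc6a19 by -0.16 and -0.54. The neuronal and glial markers summed to 49.6 and 71.1 in jejunum, with 8 and 11 of 13 well above background, and to 30.4 and 40.2 in ileum, with 11 and 10. The sums lean on the brightest probes: of 8 markers measured on both wild-type arrays 6 were higher in ileum, with 2 at least 2-fold higher, 0 lower and a median of 0.46, and in G181R mice the median over 10 was -0.11. Their part in the Slc6a3 signal was not tested.

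Slc1a3 was 5.05-fold and 8.62-fold lower in ileum at signals of 63.8 and below. Slc6a4 was 2.35-fold and 4.19-fold lower. Slc6a8 was 2.73-fold and 2.21-fold lower, though its other probe gave -0.42 and -0.14. Slc43a3 was 3.41-fold and 3.53-fold lower. On the ileal side stood Slc6a7, 4.82-fold and 2.94-fold higher, Slc6a9, 2.41-fold and 2.6-fold higher, and Slc7a10, 2.43-fold and 2.99-fold higher. The last of these read 11.1 to 35.2, close to background.

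A few members passed 2-fold between tissues in a single genotype. Slc38a1 was 2.21-fold higher in wild-type ileum and differed by 0.77 in G181R mice, and Slc15a3 was 2.17-fold lower and differed by -0.82. Slc7a15 was 2.79-fold lower in G181R ileum and differed by -0.91 in wild-type mice. None of these differences between genotypes was tested. Members past 2-fold in both genotypes, in 1 of them as a bound, included Slc38a11 and Slc36a4. Slc38a11 was 2.98-fold lower in wild-type and at least 3.78-fold lower in G181R ileum. Slc36a4, an amino acid carrier with high affinity for proline and tryptophan, was at least 3.67-fold higher in wild-type and 2.78-fold higher in G181R ileum.

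Normexp ended the 2-fold calls of dim members between tissues. In wild-type mice it gave -0.47 for Slc15a3, -0.91 for Slc1a3, -0.48 for Slc38a11, 0.17 for Slc7a10 and 0.56 for Slc7a6. In G181R mice it gave -0.96 for Slc1a3, 0.22 for Slc36a4, 0.52 for Slc6a7, 0.40 for Slc7a10 and 0.72 for Slc7a6. The mean of all probes put Slc6a8 at -0.94 and -0.64.

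Of the D-serine carriers measured, 5 of 5 read higher in ileum in each genotype, beside 46.6% of all genes in wild-type and 48.0% in G181R mice. Their medians were 1.14 in wild-type and 0.90 in G181R mice. At least 2-fold higher in ileum were 3 in wild-type mice, beside 7.42% of all genes, and 2 in G181R mice, beside 7.3%. Slc7a10 was among them in each genotype at signals close to background, and normexp put it at 0.17 and 0.40, under 2-fold. Slc1a4, at its probe with the shared run, was higher by 0.23 in G181R mice. In wild-type mice it was higher by only 0.03, within the median spot SD of 0.0399. The members with neighbours of their own family within 500 kb did not all move as blocks. On chromosome 11, Slc36a2, a proton-coupled glycine and proline carrier, differed by 0.40 and 0.41 between tissues, against -3.38 and -3.23 for Slc36a1. The 2 dimmer probes of Slc36a2 were well above background in ileum only and at least 2.85-fold and 2.03-fold higher there in wild-type mice. On chromosome 15 Slc38a1 and Slc38a2 were both higher in ileum, by 1.14 and 0.71 in wild-type mice, while Slc38a4 was not well above background on any array. On chromosome 9 Slc6a20a and Slc6a20b were both lower in ileum and both lower in G181R mice.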

How the data were processed

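Per the file headers, the authors' scanner files were made with Agilent Feature Extraction 11.5.1.1 and hold processed intensity values, background-subtracted and detrended within each array, with mm9 probe positions. Other deposited values mark each spot, by 0 or 1, as well above background, saturated or an outlier. A separate deposited table of log2 values was found to match the scanner log2 intensity minus a constant per array, within 0.01, for 95.8% of probes. There, 2356 probes, 8 of them members, hold a single filled value per array, so that table served only as an alternative.

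Here, log2 intensities were averaged over a probe's spots without outlier-flagged spots, and the array's 75th percentile was subtracted. Each gene was taken at the probe with the highest mean over the 4 arrays. Differences of at least 2-fold were counted among probes well above background on both arrays. A probe well above background on 1 array only gave an "at least" fold, against the higher of its own signal and the lowest signal well above background on the other array. Of the 135 member probes 100 matched a GRCm38.p6 gene by accession. With 1 array per group no test was run. The alternatives were normexp (limma 3.58.1, offset 50), median scaling, quantile normalization, no background filter, the mean of a gene's probes, the deposited table and outlier spots kept. Named were all members 2-fold apart between genotypes or between tissues in both genotypes, members with such a bound, and those on the role lists named in the results. Members and lists were chosen with earlier results of these data known. The shared runs, promoter words, neighbours and limits in spot SDs were chosen after values were seen. Scripts ran in Python 3.11.15 and R 4.3.3. The 2-fold threshold was tried on simulated differences that varied by the median spot SD only. That trial left out the wider spread of dim probes and any variation between mice, so it does not test the calls.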

Additional observations from a re-analysis of the deposited data

Results flagged for a closer look

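Slc6a4, the serotonin carrier, was the member whose genotype difference had opposite signs in the 2 tissues beyond 3 spot SDs. G181R minus wild-type was 0.41 in jejunum and -0.43 in ileum, so the ileal difference minus the jejunal one was -0.83 (log2). Its other probe gave 0.35 and -0.31, a difference of -0.66. With 1 array per group the difference between the tissues was not tested.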

How the results depend on the processing

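With normexp background correction, 0 members were at least 2-fold higher and 0 lower in G181R jejunum (2 and 1 in the reported setting), 1 was lower in G181R ileum (2), and 3 were higher in ileum than jejunum in G181R mice (7). Without the background filter the genotype counts were 4 higher and 3 lower in jejunum and 3 higher and 5 lower in ileum, and 14 and 13 members were higher in ileum than jejunum in wild-type and G181R mice. With the mean of a gene's probes, 2 were lower in G181R jejunum, 1 was lower in G181R ileum, and 11 were higher in ileum in each genotype. Median scaling put 2 members higher in G181R ileum. The other counts stayed within 1.5 times. None of the members past 2-fold changed sign under any alternative that was run. Between tissues normexp kept 15 of 20 calls in wild-type and 13 of 18 in G181R mice. No paired analysis was possible because each group holds a single array, so the groups share fewer than 2 replicate numbers; a fit pairing the genotypes by tissue was not run. Differences of probes with signals under about 50 are the least certain, as are genes with a single probe, Slc6a14, Slc7a1 and Slc7a5 among them, and nothing here measures variation between mice.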
